A study of Mus musculus with 6 samples.

Results

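Heat shock proteins and molecular chaperones were followed through whole mouse adrenal glands as 34 genes, given by symbol and matched to the Ensembl identifiers of the count table. The table listed 54532 genes, and all 34 members were found in it and passed the filter on low counts that left 16300 genes for testing. They comprised 7 cytosolic inducible heat shock proteins, 7 cytosolic constitutive chaperones, 9 cytosolic co-chaperones with their transcriptional regulator, 7 chaperones of the endoplasmic reticulum and 4 of the mitochondria.

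RNA of adrenal glands from mice labelled VEGF/LysM (3 samples) and from mice labelled WT (3 samples) was sequenced in bulk, a design that asks about VEGF from macrophages in the whole gland. LysM is another name of Lyz2, the lysozyme gene of myeloid cells, but the labels describe neither the allele nor its driver, and they give no age, sex or strain. Nor do they say that replicates came from separate animals, so each p reflects only how these samples differ among themselves, and that spread may be technical. A whole gland mixes cortex, medulla, vessels and immune cells, and in such bulk samples fewer cells of a type and less RNA per cell cannot be told apart.

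Chaperones hold unfolded proteins and help them reach their shape. In the cytosol, Hsp70 proteins receive clients from J-domain partners and pass some of them to Hsp90, the path by which steroid receptors are kept ready for hormone, and the transcription factor HSF1 raises the inducible members under heat or other protein damage. The endoplasmic reticulum and the mitochondria, where the enzymes of steroid synthesis reside, each have a separate set, and the unfolded protein response controls that of the reticulum. In rats, restraint stress is known to raise Hsp70 transcripts in the adrenal cortex.

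RefSeq promoter windows on GRCm38.p6, which run from 250 bases before to 50 bases after the start site, were matched for 27 of the 34 members. The promoters of Hspa1a, Hspa1b and Hspb1 are shown because these were the members whose groups did not overlap. Printed are the 250 bases before the start site, 5′ to 3′ in the direction of the gene, for Hspa1a (chr17:34972157-34972406, minus strand), Hspa1b (chr17:34959239-34959488, minus strand) and Hspb1 (chr5:135887669-135887918, plus strand), and capitals mark the 2-unit heat shock element GAANNTTC.
Hspa1a: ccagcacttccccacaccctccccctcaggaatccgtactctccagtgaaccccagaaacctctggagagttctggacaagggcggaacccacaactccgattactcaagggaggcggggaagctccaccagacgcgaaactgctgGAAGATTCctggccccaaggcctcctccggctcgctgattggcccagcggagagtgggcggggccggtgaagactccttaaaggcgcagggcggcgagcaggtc
Hspa1b: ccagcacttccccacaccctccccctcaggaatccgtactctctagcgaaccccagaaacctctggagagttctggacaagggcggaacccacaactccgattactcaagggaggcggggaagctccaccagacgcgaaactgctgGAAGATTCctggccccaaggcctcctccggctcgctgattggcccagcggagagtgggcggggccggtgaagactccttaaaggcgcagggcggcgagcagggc
Hspb1: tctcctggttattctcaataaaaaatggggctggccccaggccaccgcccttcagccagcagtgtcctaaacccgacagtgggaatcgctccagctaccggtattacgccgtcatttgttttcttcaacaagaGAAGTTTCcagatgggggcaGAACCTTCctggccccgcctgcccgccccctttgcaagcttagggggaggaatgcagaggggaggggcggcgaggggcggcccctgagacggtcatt

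The Hspa1a and Hspa1b promoters were identical at 247 of 250 bases, with the heat shock element at the same place. Both strands were searched. GAANNTTC reads the same on either strand, is contained in the 3-unit element GAANNTTCNNGAA and occurred in 7.86% of all 32851 windows. Among members with a window it was present in 5 of 5 cytosolic inducible heat shock genes, 1 of 5 constitutive genes, 3 of 8 co-chaperone genes, 0 of 6 reticulum genes and 2 of 3 mitochondrial genes. A gene counted if any of its windows matched, while the shares over all windows count each window. In Hspb8, Hsph1 and Bag3 the matches lay after the start site. In Chordc1 a match began just before the start site and another after it. The 3-unit element, present in 0.603% of all windows, was found in Hsph1, Chordc1, Hspd1 and Hspe1. Hspd1 and Hspe1 lie head to head on chromosome 1, and their matches covered the same bases, which read ttccggaaggttc in the direction of Hspd1 and gaaccttccggaa in that of Hspe1 (chr1:55088064-55088076). A match describes letters and does not show that a factor bound.

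The endoplasmic reticulum stress element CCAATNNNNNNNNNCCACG, present in 0.119% of windows on either strand, was found in 3 of 6 reticulum genes and in 0 of the members of every other compartment that had a window. Its matches are shown because few promoters hold this element, in the direction of each gene, with the fixed bases in capitals: Hspa5 (chr2:34772025-34772043, plus strand), Calr (chr8:84847075-84847093, minus strand) and Hsp90b1 (chr10:86705638-86705656 and chr10:86705533-86705551, minus strand). The Calr match and the second of Hsp90b1 carry the element on the opposite strand.
Hspa5: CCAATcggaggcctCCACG
Calr: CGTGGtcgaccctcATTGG
Hsp90b1, first: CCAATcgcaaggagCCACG
Hsp90b1, second: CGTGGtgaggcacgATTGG

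Library totals ran from 16476879 to 18671950 counts, and no member had fewer than 181 counts in any library. Vegfa stood at 180, 193 and 501 CPM (counts scaled to library size, with TMM factors) in VEGF/LysM and at 295, 241 and 332 CPM in WT, and Lyz2 at 132, 111 and 134 CPM in VEGF/LysM and at 186, 275 and 263 CPM in WT. Cortex markers (8 of 8 detected in every library) summed to 44062 to 53527 CPM in VEGF/LysM and 28232 to 49620 CPM in WT, and medulla markers (6 of 6) to 5782 to 9435 CPM in VEGF/LysM and 3785 to 6928 CPM in WT. WT replicate 3 stood apart. It was lowest in both sums and held transcripts of other organs: 14 hepatocyte genes summed to 136, 249 and 944 CPM in VEGF/LysM, against 337, 222 and 88769 CPM in WT. In VEGF/LysM replicates 1 and 2 and WT replicates 1 and 2, 4 to 7 of the 14 were at 0. VEGF/LysM replicate 3 had 0 of the 14 at 0 and also held liver transcripts, at a lower level than WT replicate 3. Its Alb stood at 169 CPM, against 0.0569 to 1.06 CPM in replicates 1 and 2 of both groups. Outside WT replicate 3, Cyp2e1 made up most of each hepatocyte sum. The 6 kidney tubule genes summed to 0.0586, 0 and 2.30 CPM in VEGF/LysM, against 0, 0.155 and 30.8 CPM in WT. The 10 lymphocyte genes summed to 96.6, 137 and 67.0 CPM in VEGF/LysM, against 281, 152 and 1138 CPM in WT. The part of this admixture in the chaperone values was not tested. Results are therefore given with and without WT replicate 3, and some also without both replicates 3.

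None of the 34 chaperone genes differed between VEGF/LysM and WT past the threshold of 0.05. By the quasi-likelihood method of edgeR, 0 members and 0% of all 16300 genes were called (smallest adjusted p = 0.999). DESeq2 and limma-voom with sample weights also called 0 members, and each of the 3 tools gave 3 members an unadjusted p under 0.05. In edgeR these were Hspa1a, Hspa1b and Hspb1, all lower in VEGF/LysM, where 1.94% of all genes were lower at that p. The same 3 genes were the members with 3 VEGF/LysM values below all 3 WT values, against 2.41% of all genes, and 0 members were higher without overlap, against 3.54% of all genes. Log2 fold changes (VEGF/LysM over WT) were below 0 for 25 of 34 members, against 49.7% of all genes, and the members' median was -0.16 against 0.0013 for all genes. Since the members were chosen with earlier results known, these shares are descriptions only. Without WT replicate 3, edgeR called 0 members, against 0.006% of all genes. The count below 0 was then 17 of 34, against 48.5% of all genes, with a median of 0.0019, and Hspa1a, Hspa1b and Hspb1 stayed the 3 members lower without overlap, against 6.59% of all genes.

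**Figure D1:**
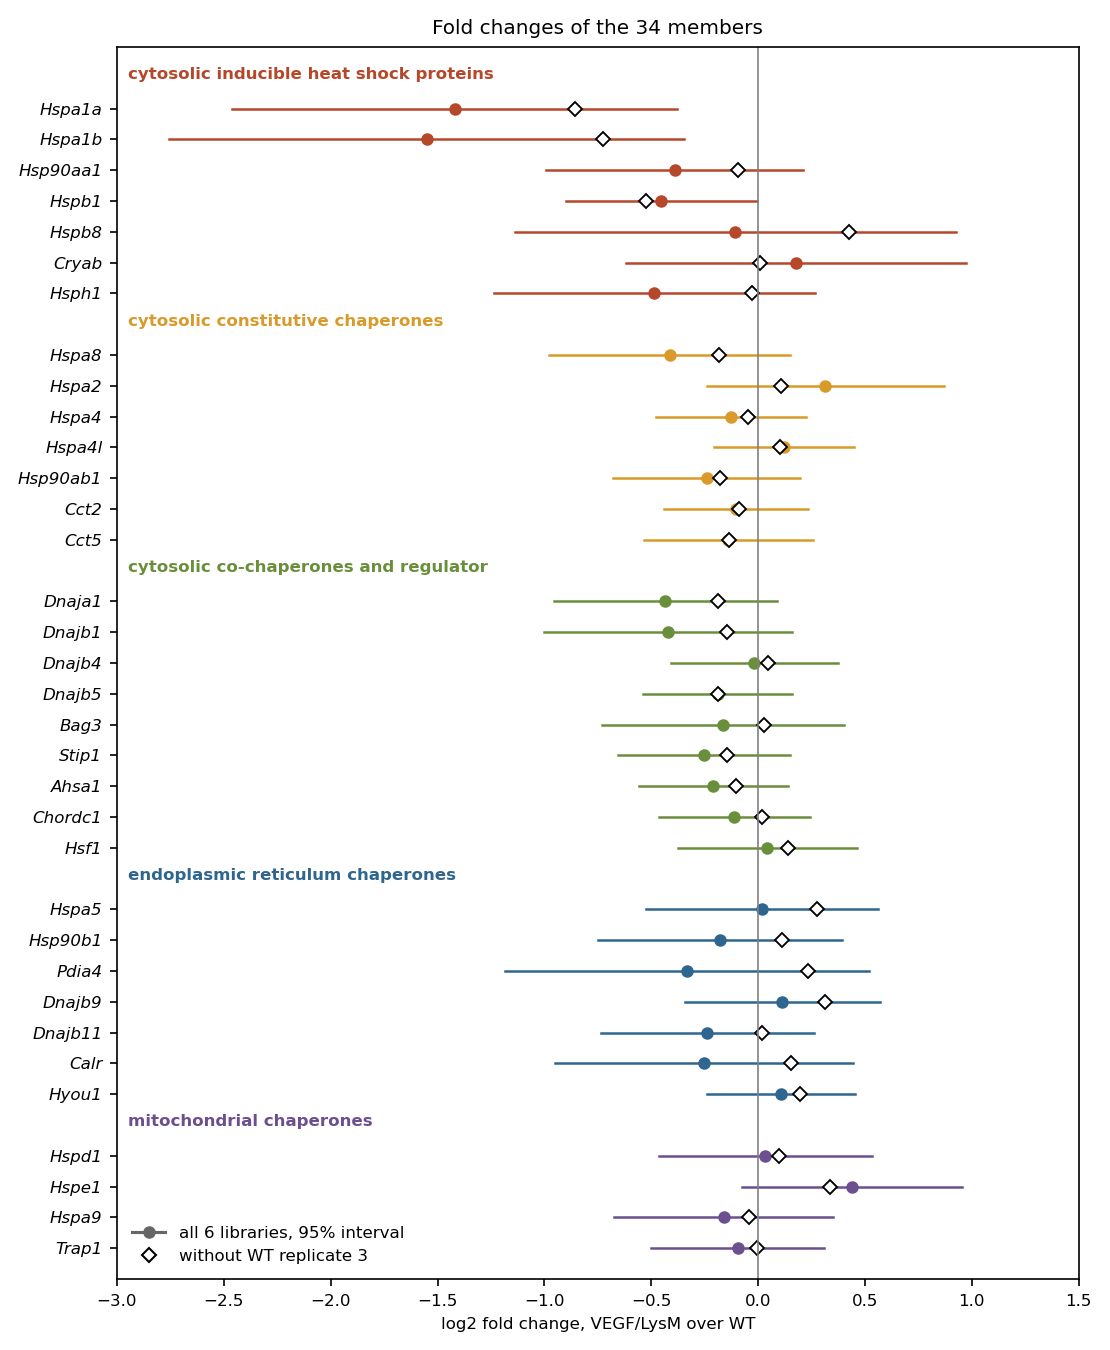
Log2 fold changes (VEGF/LysM over WT, x axis) of the 34 members by compartment: filled circles with bars are the edgeR estimate and its 95% interval from all 6 libraries, and open diamonds the estimate without WT replicate 3. The intervals of Hspa1a (-2.46 to -0.38), Hspa1b and Hspb1 (-0.90 to -0.0034) lie below 0, while all 7 reticulum genes have their diamond to the right of 0. WT replicate 3, left out for the diamonds, was the highest library for each of these 7 genes.

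Cytosolic inducible heat shock proteins had 6 of 7 log2 fold changes below 0 and a median of -0.45. This was the lowest median among the compartments with all libraries, but not without WT replicate 3, when it was -0.094 (5 of 7 below 0) and that of the co-chaperones was -0.10. Hspa1a, an Hsp70 gene without introns that is induced by stress (ENSMUSG00000091971, chr17:34969190-34972156, minus strand, GRCm38), had 14.9, 21.8 and 18.1 CPM in VEGF/LysM, against 43.5, 22.6 and 80.4 CPM in WT. The VEGF/LysM values were close to each other and below every WT value, but WT replicate 2 lay only just above them. The means were 18.2 ± 3.44 CPM in VEGF/LysM and 48.8 ± 29.3 CPM in WT (SD, n = 3 each), a log2 fold change of -1.42 ± 0.44 (SE) that did not pass (edgeR, adjusted p = 0.999). Without WT replicate 3 it was -0.86. Hspa1b, its neighbour on chromosome 17 (ENSMUSG00000090877, chr17:34956436-34959238, minus strand), had 39.6, 49.5 and 44.8 CPM in VEGF/LysM, against 91.0, 56.5 and 245 CPM in WT. WT replicate 2 was again the nearest to the VEGF/LysM libraries and WT replicate 3 the farthest. Its log2 fold change was -1.55 ± 0.51 (SE), and -0.73 without WT replicate 3.

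Counts of Hspa1a and Hspa1b depend on how reads were shared between them. Of the 31-base words in the Hspa1a transcript, 63.8% also occurred in Hspa1b, and 67.7% of those of Hspa1b occurred in Hspa1a. Added together, which removes the question of the split, the pair had 54.5, 71.3 and 62.9 CPM in VEGF/LysM, against 134, 79.2 and 326 CPM in WT. The groups did not overlap for the sum either, and the log2 ratio of the means was -1.52, or -0.76 without WT replicate 3. Hspa1b had 2.47 ± 0.19 times the counts of Hspa1a in VEGF/LysM and 2.55 ± 0.48 times in WT (SD, n = 3 each), with overlapping groups.

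Hspb1, a small heat shock protein that keeps damaged proteins soluble (ENSMUSG00000004951, chr5:135887919-135889563, plus strand), had 66.3, 68.5 and 47.1 CPM in VEGF/LysM, against 96.7, 77.1 and 75.0 CPM in WT. Here WT replicate 1 was the highest library and WT replicate 3 the lowest of its group. The log2 fold change was -0.45 ± 0.19 (SE; edgeR, adjusted p = 0.999), and -0.52 without WT replicate 3, or -0.30 without VEGF/LysM replicate 3. Of its 31-base words, 52.3% recurred in the pseudogene Hsp25-ps1, which held 3 counts over the 6 libraries against 7442 for Hspb1.

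The other inducible genes overlapped between the groups. Hsp90aa1, the inducible cytosolic Hsp90, had 352, 428 and 366 CPM in VEGF/LysM, against 441, 372 and 689 CPM in WT. WT replicate 3 was far above the VEGF/LysM range, WT replicate 1 just above it and WT replicate 2 inside it. The log2 fold change of -0.39 ± 0.25 (SE) became -0.094 without WT replicate 3. Hsph1, an Hsp110 that recharges Hsp70, stood at -0.48 ± 0.32 (SE), and at -0.027 without WT replicate 3. Hspb8, the small heat shock partner of Bag3, had -0.11 ± 0.43 (SE) and 0.42 without that library. Cryab, which encodes αB-crystallin, had 0.18 ± 0.34 (SE), and 0.0098 without WT replicate 3, with 14.8% of its words shared with the overlapping gene Hspb2.

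**Figure D2:**
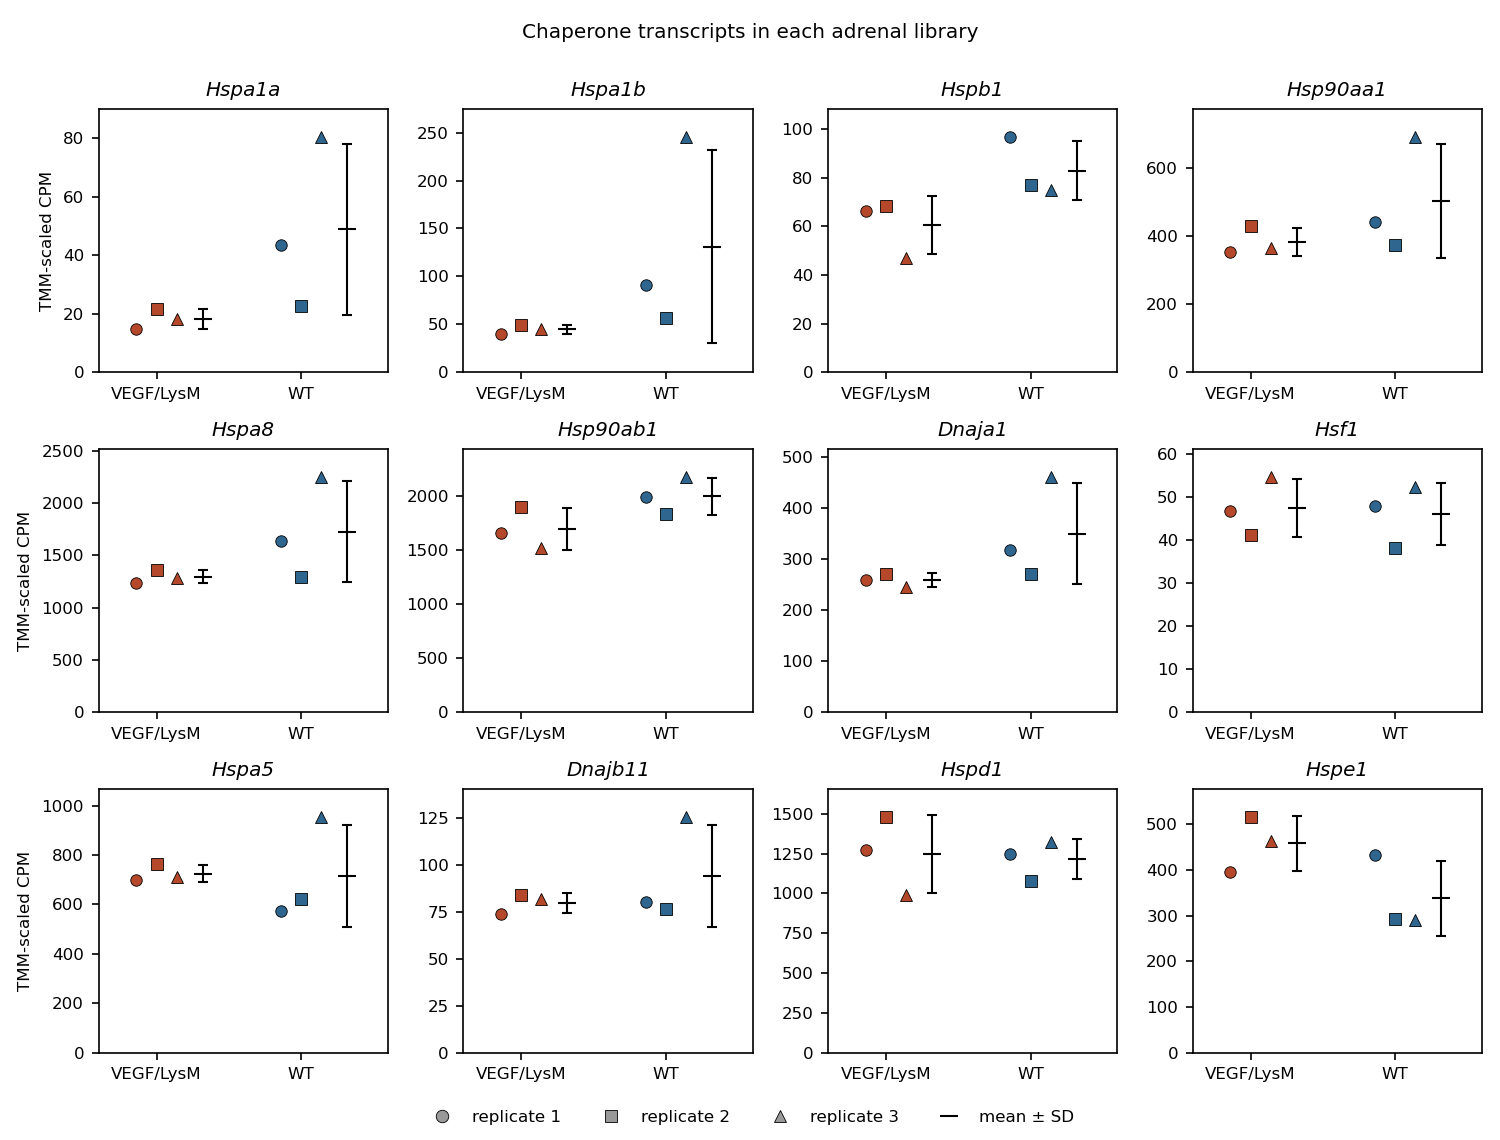
TMM-scaled CPM (y axis, from 0) of 12 members in each library, with replicates told apart by symbol, VEGF/LysM left of WT, and mean ± SD of 3 libraries beside them. For Hspa1a and Hspa1b the VEGF/LysM points lie tightly below all WT points, of which WT replicate 3 is the farthest at 80.4 and 245 CPM, while the groups overlap for Hspa5 and Hspe1.

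Constitutive cytosolic chaperones overlapped between the groups in all 7 cases, with a median log2 fold change of -0.13. Hspa8, the Hsp70 that cells always make (ENSMUSG00000015656, chr9:40800984-40810087, plus strand), had 1239, 1365 and 1288 CPM in VEGF/LysM, against 1642, 1293 and 2249 CPM in WT. WT replicates 1 and 3 were above the VEGF/LysM range and WT replicate 2 was inside it. Its log2 fold change was -0.41 ± 0.24 (SE; edgeR, adjusted p = 0.999), the smallest p of this set, and -0.18 without WT replicate 3. Hsp90ab1, the constitutive Hsp90, had 1664, 1902 and 1520 CPM in VEGF/LysM, against 1993, 1836 and 2178 CPM in WT. The log2 fold change was -0.24 ± 0.18 (SE) with all libraries and -0.18 without WT replicate 3. Reads of these chaperones can also fit pseudogenes: 44.8% of the 31-base words of Hspa8, 13.2% of those of Hsp90ab1 and 51.5% of those of inducible Hsp90aa1 recurred in other genes. The copy that shares most with Hspa8, Gm15459, was listed at 0 counts, and that of Hsp90aa1, Gm12346, held 568 counts against 44636. Cct2 and Cct5, subunits of the chaperonin that folds actin and tubulin, had -0.10 ± 0.14 and -0.14 ± 0.17 (SE), and Hspa4 and Hspa4l, which recharge Hsp70, had -0.13 ± 0.15 and 0.12 ± 0.14. Hspa4 stood at -0.048 without WT replicate 3. Hspa2, an Hsp70 best known from the testis, had 24.6, 24.0 and 23.8 CPM in VEGF/LysM, against 24.3, 20.5 and 13.4 CPM in WT, a log2 fold change of 0.31 ± 0.23 (SE), with the lowest value in WT replicate 3 and 0.11 without that library.

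Per length, levels differed widely among the members. As mean CPM per kilobase of the longest principal transcript over the 6 libraries, Hsp90ab1 stood at 734 and Hspa8 at 632, the highest levels among the members. Hspe1 and Hspd1 followed at 514 and 508, and Hspa9 at 253. Inducible Hspa1b and Hspa1a stood at 31.3 and 11.3, and Hspa4l had the lowest level at 7.11. That rank rests on a transcript length of 9479 bases. Before division by length, Hspa4l had 61.1 to 80.1 CPM over the libraries, above Hspa2 with 13.4 to 24.6 CPM. Within a library, where scaling cancels, Hspa1a plus Hspa1b had 0.0439, 0.0522 and 0.0488 times the counts of Hspa8 in VEGF/LysM, against 0.0819, 0.0612 and 0.145 times in WT. These groups did not overlap. The ratio of Hsp90aa1 to Hsp90ab1 was 0.212, 0.225 and 0.240 in VEGF/LysM, against 0.221, 0.203 and 0.316 in WT, with all VEGF/LysM values above WT replicate 2, below WT replicate 3 and on both sides of WT replicate 1. With 3 libraries a group, the smallest p an exact permutation test allows is 0.1, and the ratios were left as descriptions.

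**Figure D3:**
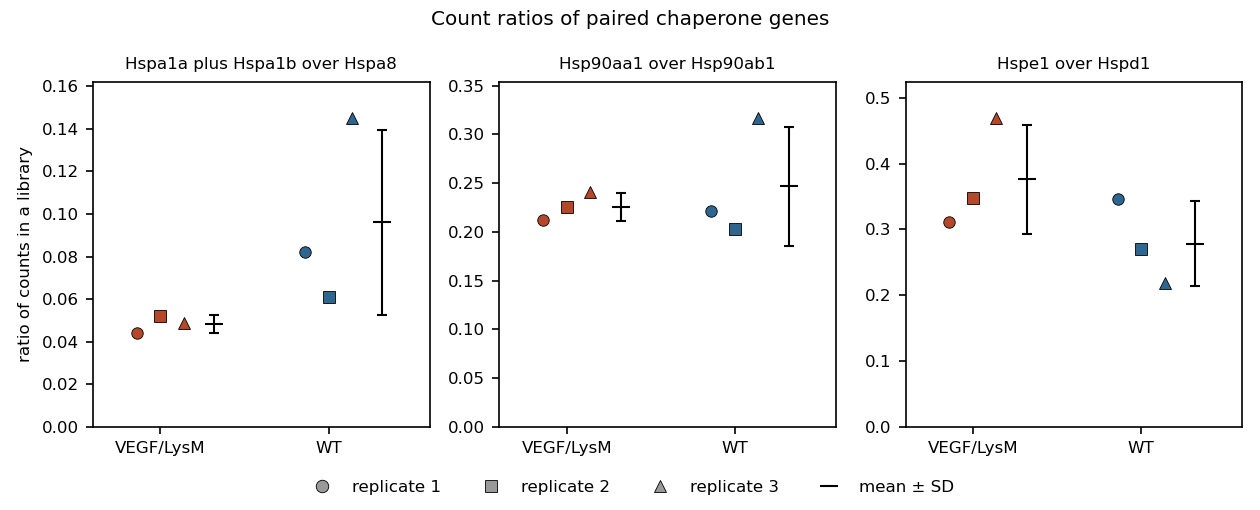
Ratios of counts within a library (y axis, from 0) for 3 gene pairs, VEGF/LysM left of WT, with replicates by symbol and mean ± SD of 3 libraries. The ratio of Hspa1a plus Hspa1b to Hspa8 lies between 0.0439 and 0.0522 in VEGF/LysM, below all WT libraries, and the other ratios overlap between the groups.

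Co-chaperones and their regulator overlapped between the groups in all 9 cases, with 8 of 9 log2 fold changes below 0 and a median of -0.19. Without WT replicate 3, 5 of 9 were below 0, with a median of -0.10. Dnaja1, a J-domain partner of Hsp70, had the smallest p of this set: 259, 272 and 245 CPM in VEGF/LysM, against 318, 270 and 460 CPM in WT. WT replicate 2 again fell within the VEGF/LysM range. The log2 fold change was -0.43 ± 0.22 (SE; edgeR, adjusted p = 0.999), and -0.19 without WT replicate 3. Dnaja1 overlaps Smu1 on the opposite strand, which held 7530 counts against 30781, and the libraries do not separate strands. Dnajb1, a J-domain partner induced by heat, had -0.42 ± 0.25 (SE), Stip1, which bridges Hsp70 and Hsp90, -0.25 ± 0.17, and Ahsa1, the activator of the Hsp90 ATPase, -0.21 ± 0.15. These were -0.14 for Dnajb1, -0.14 for Stip1 and -0.10 for Ahsa1 without WT replicate 3. Bag3, which releases Hsp70 clients to autophagy, had -0.16 ± 0.24 (SE) and Chordc1, an Hsp90 partner, -0.11 ± 0.15, and both were just above 0 without WT replicate 3. The J-domain genes Dnajb4 and Dnajb5 had -0.017 ± 0.16 and -0.19 ± 0.15 (SE), and 0.046 and -0.19 without that library. Hsf1, the transcription factor of the heat shock response, had 46.6, 41.2 and 54.6 CPM in VEGF/LysM, against 47.9, 38.0 and 52.2 CPM in WT. The groups overlapped almost fully, with a log2 fold change of 0.044 and a 95% interval of -0.38 to 0.46.

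Chaperones of the endoplasmic reticulum were highest in WT replicate 3 in 7 of 7 cases, where 28.4% of all genes tested had their highest value. With all libraries 4 of 7 log2 fold changes were below 0, with a median of -0.18. Without WT replicate 3, 7 of 7 were above 0, against 51.5% of all genes, with a median of 0.19, and 5 of 7 were higher in VEGF/LysM without overlap, against 7.92% of all genes. Since WT replicate 3 was the highest library for all 7, leaving it out raised their fold changes by itself, and these counts are descriptions only. None of the 7 passed in either fit by edgeR. WT replicate 3 was also the library with 88769 CPM of hepatocyte and 1138 CPM of lymphocyte transcripts, and their part in these values was not tested. Hspa5, the reticulum Hsp70 also called BiP (ENSMUSG00000026864, chr2:34771970-34777547, plus strand), had 700, 764 and 709 CPM in VEGF/LysM, against 571, 623 and 953 CPM in WT. The VEGF/LysM values lay between WT replicates 1 and 2 on the low side and WT replicate 3 on the high side. The log2 fold change was 0.017 ± 0.23 (SE; edgeR, adjusted p = 0.999) with all libraries and 0.27 without WT replicate 3.

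The same order, with VEGF/LysM between WT replicates 1 and 2 and WT replicate 3, held for 5 reticulum genes, Hspa5 included. Calr, which encodes the glycoprotein chaperone calreticulin, had 473, 501 and 486 CPM in VEGF/LysM, against 416, 458 and 866 CPM in WT. Hyou1, which recharges BiP, had 279, 268 and 285 CPM in VEGF/LysM, against 232, 251 and 289 CPM in WT. Dnajb9, a J-domain partner of BiP, had 70.5, 77.6 and 88.4 CPM in VEGF/LysM, against 59.5, 67.0 and 92.0 CPM in WT. In Hyou1 and Dnajb9 the highest VEGF/LysM library came close to WT replicate 3, while in Calr it did not. Pdia4, a disulfide isomerase, had 84.0, 88.3 and 91.2 CPM in VEGF/LysM, against 70.5, 78.3 and 183 CPM in WT. Their log2 fold changes with all libraries were -0.25 (Calr), 0.11 (Hyou1), 0.11 (Dnajb9) and -0.33 (Pdia4), and without WT replicate 3 they were 0.15, 0.19, 0.31 and 0.24 in the same order. Dnajb11, another partner of BiP and the gene of smallest p in this set, had 73.6, 83.8 and 82.0 CPM in VEGF/LysM, against 80.4, 76.7 and 125 CPM in WT. It overlapped even without WT replicate 3, as did Hsp90b1, the reticulum Hsp90, with log2 fold changes of 0.020 and 0.11 in that fit.

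Mitochondrial chaperones overlapped between the groups in all 4 cases, with a median log2 fold change of -0.030. The median was 0.045 without WT replicate 3 and 0.10 without VEGF/LysM replicate 3, which was the lowest library for 3 of the 4 genes. Without both of these libraries, 4 of 4 were above 0, against 50.1% of all genes. Hspd1, Hspa9 and Trap1 were then higher in VEGF/LysM without overlap, against 14.4% of all genes. VEGF/LysM replicate 3 was lowest for these 3 genes and WT replicate 3 highest for Hspa9 and Trap1. Leaving these libraries out therefore raised the fold changes by itself, and the counts are descriptions only. Hspd1, the chaperonin Hsp60 (ENSMUSG00000025980, chr1:55077835-55088243, minus strand), had 1270, 1478 and 989 CPM in VEGF/LysM, against 1248, 1079 and 1322 CPM in WT. VEGF/LysM held both the highest and the lowest library, and the log2 fold change was 0.034 ± 0.21 (SE). Hspe1, the Hsp10 lid of that chaperonin (ENSMUSG00000073676, chr1:55088132-55091307, plus strand), had 395, 515 and 464 CPM in VEGF/LysM, against 432, 291 and 289 CPM in WT. Only WT replicate 1 reached into the VEGF/LysM range. The log2 fold change of 0.44 ± 0.22 (SE; edgeR, adjusted p = 0.999) was the highest among the 34 members in the fit to all libraries, and it was 0.34 without WT replicate 3. The ratio of Hspe1 to Hspd1 was 0.311, 0.349 and 0.469 in VEGF/LysM, against 0.347, 0.270 and 0.219 in WT, with overlapping groups. Both genes have copies in the genome: 53.1% of the 31-base words of Hspd1 and 30.5% of those of Hspe1 recurred in other genes. The copy that shares most with Hspd1, Hspd1-ps3, held 2137 counts over the 6 libraries against 127259. Transcripts of Hspd1 and Hspe1 overlap on opposite strands, which these libraries do not tell apart. Hspa9, the mitochondrial Hsp70, stood at -0.16 ± 0.22 (log2 fold change ± SE), and Trap1, the mitochondrial Hsp90, had -0.094 ± 0.17. They stood at -0.041 and -0.0059 without WT replicate 3.

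Across libraries, the compartments differed in how far WT replicate 3 moved. Each gene's log2 CPM was taken relative to its mean over the 6 libraries, and the median over the genes of a compartment was then read in each library. In WT replicate 3 this median was 0.86 for cytosolic inducible genes, 0.55 for reticulum genes, 0.31 for co-chaperones, 0.17 for mitochondrial genes and 0.085 for constitutive genes. Inducible genes had -0.31, -0.035 and -0.58 in VEGF/LysM and 0.040 and -0.29 in WT replicates 1 and 2, so that WT replicate 2 lay inside the VEGF/LysM range and WT replicate 1 just above it. Reticulum genes had -0.11, -0.029 and -0.023 in VEGF/LysM and -0.31 and -0.18 in WT replicates 1 and 2. Mitochondrial genes had 0.063, 0.20 and -0.31 in VEGF/LysM, with the low value in replicate 3, and 0.022 and -0.12 in WT replicates 1 and 2. Over all 34 genes, 11, 16 and 9 were above their own mean in VEGF/LysM replicates 1, 2 and 3, against 21, 3 and 30 in WT replicates 1, 2 and 3.

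**Figure D4:**
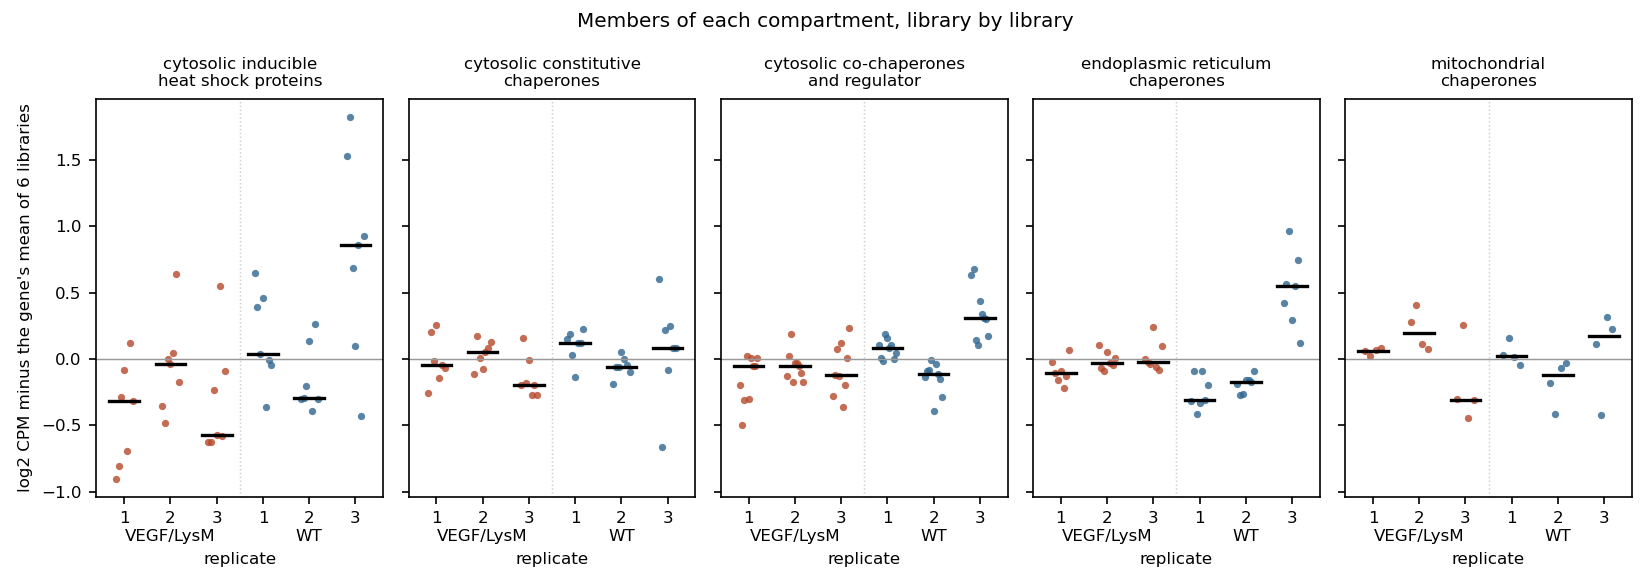
Log2 CPM of each member minus its mean over the 6 libraries (y axis) in each library (x axis, VEGF/LysM left of WT), with a panel for each compartment, a point for each gene and a bar at the median. WT replicate 3 has the highest median for inducible genes (0.86), reticulum genes (0.55) and co-chaperones (0.31). Its constitutive genes lie on both sides of 0, from -0.67 (Hspa2) to 0.61 (Hspa8), around a median of 0.085.

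Immediate early genes, which respond within minutes to stress and handling, did not follow the chaperones in every library. Their sum over 10 of 10 detected genes was 670, 895 and 3271 CPM in VEGF/LysM, against 2037, 753 and 1811 CPM in WT. WT replicates 1 and 3, the libraries with most Hspa1a and Hspa1b, were high in this sum, but VEGF/LysM replicate 3 was the highest and had 18.1 CPM of Hspa1a. Erythrocyte genes (6) summed to 173, 89.4 and 157 CPM in VEGF/LysM, against 606, 209 and 407 CPM in WT, the same rank order within WT replicates as immediate early genes. Whether handling of the tissue or blood content bears on the Hspa1a and Hspa1b values was not tested.

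Further genes of the same pathways, taken from lists that share no gene with the members, gave 0 calls in either direction in edgeR's test. The lists held 27 genes listed as other cytosolic chaperones and co-chaperones, 12 other chaperonin and prefoldin subunits, 23 genes of the unfolded protein response and 17 of mitochondrial import and quality control. Their median log2 fold changes were -0.049, -0.16, -0.062 and -0.059 in that order, and -0.028, -0.14, 0.062 and 0.036 without WT replicate 3. The first list also holds reticulum proteins, such as Hspa13, Dnajc3 and Serpinh1, so its median does not describe the cytosol alone. Chaperonin and prefoldin genes were below 0 in 10 of 12 cases with all libraries, against 49.7% of all genes. Without WT replicate 3 they were below 0 in 12 of 12, against 48.5% of all genes. Cct8 had 178, 179 and 150 CPM in VEGF/LysM, against 205, 181 and 235 CPM in WT, and Cct7 stood at -0.21 ± 0.17 (log2 fold change ± SE). Cct8 was lower without overlap, as 1 of the 12 genes of its list, against 2.41% of all genes. Of the 17 mitochondrial genes, 1 was lower without overlap. Genes of the unfolded protein response were above 0 in 9 of 23 cases with all libraries, against 50.3% of all genes. Without WT replicate 3 they were above 0 in 18 of 23, against 51.5% of all genes. That library was the highest for 13 of the 23, so leaving it out raised their fold changes by itself.

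Ern1, which encodes the reticulum stress sensor IRE1α, had 358, 345 and 418 CPM in VEGF/LysM, against 244, 289 and 299 CPM in WT. All VEGF/LysM values were above all WT values, as for 1 of the 23 genes of its list and 3.54% of all genes. The log2 fold change of 0.43 ± 0.16 (SE) did not pass (edgeR, adjusted p = 0.999) and was 0.48 without WT replicate 3. Herpud1, which acts in the removal of misfolded reticulum proteins, had 131, 104 and 103 CPM in VEGF/LysM, against 108, 106 and 577 CPM in WT. WT replicate 3 alone was high, and the log2 fold change of -1.22 ± 0.67 (SE) became 0.076 without it. Hspa13, an Hsp70 relative known from microsomes and listed among the other cytosolic chaperones, had 78.9, 75.2 and 76.1 CPM in VEGF/LysM, against 57.7, 73.2 and 60.6 CPM in WT. It was again higher without overlap, as were 3 of the 27 genes of that list, Hspa13 included. Hspbp1, which releases nucleotide from Hsp70, had -0.34 ± 0.18 (SE). Among mitochondrial genes, Atf5, a transcription factor of the mitochondrial stress response, had -1.04 ± 0.53 (SE) and -0.11 without WT replicate 3, and Clpx, a subunit of the matrix protease ClpXP, stood at -0.40 ± 0.33, and at 0.045 without that library.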

How the data were processed

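The deposited file holds whole-number counts per gene in 6 libraries, not normalised, as the values show. Per the labels' protocols, libraries followed Smart-seq2, which does not mark strand, from RNA of high integrity. The build mm10 and the tools DESeq2 1.36.0 and kallisto are named per the submitters' processing notes. Their roles, the kallisto version, the annotation and the rounding: not given in the sources used here. Columns were matched to samples by title, and 54409 of 54532 identifiers had a symbol.

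Counts were filtered with filterByExpr (minimum count 10, minimum total 15), scaled by TMM (factors 1.02 to 1.05, and 0.84 in WT replicate 3) and fitted by the quasi-likelihood method of edgeR 4.0.16 under R 4.3.3 with group as the only term. Benjamini-Hochberg adjustment ran over 16300 genes, with a threshold of 0.05. Standard errors and 95% intervals come from the fit. The fit was tested on simulated counts. Alternatives were other scalings and filters, a replicate block, DESeq2 1.42.0, limma-voom (limma 3.58.1) with sample weights, each library left out, and both replicates 3 left out. Counts without overlap and counts below 0 were repeated on fewer libraries after the data were seen. Positions are from GENCODE vM21 on GRCm38, the assembly that mm10 names, and 31-base words were compared on both strands of its transcripts. Library totals limit the precision of low genes.

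The members and lists were chosen with earlier results of these data known. Values per library were given, by rule, for Hspa1a, Hspa1b, Hsp90aa1, Hspa8, Hsp90ab1, Hsf1, Hspa5 and Hspd1, for members without overlap and for the smallest p of each compartment. From each further list the 2 genes of smallest p were named. Hspa2, Calr, Hyou1, Dnajb9 and Pdia4 were given in full after their values were seen.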

Additional observations from a re-analysis of the deposited data

How the results depend on the processing

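edgeR called 0 genes and 0 members with all libraries, and the counts were 0 to 1 genes and 0 members when each library was left out in turn. The 1 gene was Sumo2 (0.006% of genes tested, adjusted p = 0.0368), called without WT replicate 3. DESeq2 size factors, library size only, no filter, 1 CPM in 3 libraries, DESeq2, limma-voom, and leaving out both replicates 3 each gave 0 genes. The replicate numbers were not shown to pair the libraries: deviations of same-numbered libraries correlated at 0.064, -0.014 and 0.25, and 2 of 6 libraries correlated best with their own number. A replicate block gave 0 genes and 0 members, with 270 genes at an unadjusted p under 0.05 against 459 without the block. The members at that p were 3 with all libraries and 0 to 4 with 1 library left out (0 without VEGF/LysM replicate 1).

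Leaving out each library in turn gave compartment medians of -0.56 to -0.094 (inducible), -0.19 to -0.043 (constitutive), -0.31 to -0.10 (co-chaperones), -0.34 to 0.19 (reticulum) and -0.15 to 0.10 (mitochondrial). Among single libraries, leaving out WT replicate 3 alone moved the reticulum median above 0. The medians by limma-voom with sample weights were -0.12 (inducible), -0.038 (constitutive), -0.066 (co-chaperones), 0.081 (reticulum) and 0.092 (mitochondrial). Without both replicates 3 the medians were -0.069 (inducible), -0.012 (constitutive), -0.047 (co-chaperones), 0.18 (reticulum) and 0.19 (mitochondrial). In that fit 16 members were below 0 (25 with all libraries, 17 without WT replicate 3, 25 without VEGF/LysM replicate 3), 3 were lower without overlap (13.8% of all genes) and 8 were higher without overlap (14.4% of all genes). Without WT replicate 3 alone, 5 were higher and 3 lower without overlap (7.92% of all genes higher and 6.59% lower). The 5 were reticulum genes, for which the library left out was the highest. The summed Hspa1a and Hspa1b log2 ratio was -0.76 without both.

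No member or pathway gene was called in any setting, so a reversal could not concern a called gene. With library size only, Hspb8 (0.030) and Dnajb4 (0.062) turned. With limma-voom, Hspb8 (0.069), Bag3 (0.029), Chordc1 (0.0046), Hsp90b1 (0.062), Pdia4 (0.081), Calr (0.035), Hspa9 (0.0035), Trap1 (0.019) and Clpx (0.0049) turned. Without both replicates 3, Hspb8 (0.10), Hspa4 (0.019), Dnajb4 (0.018), Hsp90b1 (0.099), Pdia4 (0.22), Dnajb11 (0.010), Calr (0.16), Hspa9 (0.13), Trap1 (0.12), Herpud1 (0.15) and Clpx (0.23) turned, while Hspa5 stood at 0.30. With 1 library left out at a time, the ranges of genes that turned here or above were -0.44 to 0.42 (Hspb8), -0.17 to 0.44 (Cryab), -0.18 to -0.048 (Hspa4), -0.0026 to 0.18 (Hspa4l), -0.14 to 0.098 (Dnajb4), -0.36 to 0.030 (Bag3), -0.21 to 0.019 (Chordc1), -0.075 to 0.14 (Hsf1), -0.12 to 0.27 (Hspa5), -0.34 to 0.11 (Hsp90b1), -0.57 to 0.24 (Pdia4), -0.0097 to 0.31 (Dnajb9), -0.36 to 0.020 (Dnajb11), -0.44 to 0.15 (Calr), -0.12 to 0.18 (Hspd1), -0.28 to -0.0018 (Hspa9), -0.18 to 0.025 (Trap1), -1.60 to 0.076 (Herpud1) and -0.60 to 0.045 (Clpx). The cause of these turns was not tested. With DESeq2 size factors, no filter, 1 CPM in 3 libraries, the replicate block and DESeq2, the direction of all 34 members stayed as with the main settings.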

Other observations

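Several genes of the unfolded protein response, named here after their values were seen, stood apart in WT replicate 3, which held hepatocyte, kidney and lymphocyte transcripts. Trib3, a pseudokinase induced by reticulum stress, had 3.28, 3.63 and 4.36 CPM in VEGF/LysM, against 2.90, 3.09 and 21.1 CPM in WT. P4hb, a disulfide isomerase, had 463, 520 and 498 CPM in VEGF/LysM, against 460, 465 and 1045 CPM in WT. Edem1, which helps remove misfolded glycoproteins, had 98.1, 98.9 and 119 CPM in VEGF/LysM, against 82.2, 89.7 and 225 CPM in WT. Of the 23 genes of that list, 13 had their highest value in WT replicate 3, as did 23 of the 34 members and 28.4% of all genes tested. Ddit3 and Dnajc10 of that list went the other way, with their lowest value there. Ddit3 had 32.5, 29.5 and 20.5 CPM in VEGF/LysM, against 29.8, 26.8 and 14.5 CPM in WT. Dnajc10 had 97.4, 86.5 and 89.7 CPM in VEGF/LysM, against 84.3, 96.3 and 70.8 CPM in WT. Outside the reticulum, Fkbp5, a glucocorticoid-induced partner of Hsp90, had 150, 107 and 86.1 CPM in VEGF/LysM, against 113, 92.7 and 277 CPM in WT.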
